A study of Homo sapiens with 19 samples.

Results

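Binding of the retinoblastoma protein RB and of V5-tagged E2F1 was examined at the start sites of 7 genes. These genes encode 4 subunits of the MuvB complex (LIN54, LIN9, LIN52 and LIN37), the transcription factors A-MYB (MYBL1) and B-MYB (MYBL2), and FOXM1. The genes were chosen by function, and they were selected on the basis of earlier results from these same lists, including whether an interval was present and how strong it was. Presence, fold enrichment and significance at these sites are therefore given as a description, with no test. A member interval was any interval that overlapped 2 kb either side of a fixed hg19 start site. The start sites were at position 83934078 of chromosome 4 (LIN54), 226497570 of chromosome 1 (LIN9), 74551499 of chromosome 14 (LIN52), 36239262 of chromosome 19 (LIN37), 67525480 of chromosome 8 (MYBL1), 42295659 of chromosome 20 (MYBL2) and 2986321 of chromosome 12 (FOXM1). In all, 24 of the 203381 intervals of the 10 deposited lists met this rule. They filled 23 of the 70 combinations of gene and list, because MYBL1 held 2 intervals in 1 list. The series used ChIP-seq in C4-2 and VCaP, established prostate cancer lines kept in charcoal-stripped serum, and RB was mapped without treatment in both (2 C4-2 libraries, 1 VCaP library). For V5, C4-2 cells carried E2F1 under tetracycline control, as wild type (WT) or with the K185R substitution (lysine to arginine). Each V5 line was untreated, given doxycycline (0.25 ug/ml, 3 days), given the LSD1 inhibitor GSK2879552 (50 uM, 24 hours), or given doxycycline and then GSK2879552, with 2 libraries per group. Each group is represented by 1 list, so no value below has a replicate error. The V5 lists are named siNTC and siRB, in conflict with the treatment labels (untreated, doxycycline), which set the groups here. V5 intervals were also listed without doxycycline, and the level of tagged E2F1 in those cells was not analysed here.

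MuvB is a protein core that changes partners through the cell cycle. In quiescence and G1 it joins the pocket proteins p130 or p107 with E2F4 or E2F5 and DP to form the DREAM complex, which represses cell cycle genes. From S phase it binds B-MYB and then FOXM1, and the same core then activates late cell cycle genes. LIN54 contacts DNA at the cell cycle homology region (CHR), LIN52 docks the pocket proteins through a phosphorylated site, and LIN9 and LIN37 are scaffold and repression subunits. The genes for B-MYB and FOXM1 are themselves well-known cell cycle genes, and the B-MYB promoter is a classic E2F target. RB is the third pocket protein and binds mainly the activator E2Fs, among them E2F1.

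Promoter sequences were looked up for the 7 genes, and 5 of them matched an entry of the RefSeq promoter table (build GRCh38.p14, 250 bases before the start and 50 from it on). MYBL1 and FOXM1 did not match. The sequences printed are entries of a gene with V5 intervals in its window (LIN54) and of genes with RB but no V5 interval (LIN52, MYBL2 and one of the 3 LIN9 starts). They are on another build than the intervals, so no interval was placed on them. Whether they cover the start sites used or the intervals was not checked. Capitals mark the words searched on both strands: the E2F words TTTGGCGC, TTTCCCGC, TTTCGCGC, TTTGCCGC, TTTGGCGG and TTTCCCGG, the CHR words TTTGAA and TTCGAA, the CCAAT box CCAAT and the MYB core AACGG. The shorter E2F word GGCGGGA was added after the sequences had been seen.
LIN54, chr4:83010774-83011073, minus strand: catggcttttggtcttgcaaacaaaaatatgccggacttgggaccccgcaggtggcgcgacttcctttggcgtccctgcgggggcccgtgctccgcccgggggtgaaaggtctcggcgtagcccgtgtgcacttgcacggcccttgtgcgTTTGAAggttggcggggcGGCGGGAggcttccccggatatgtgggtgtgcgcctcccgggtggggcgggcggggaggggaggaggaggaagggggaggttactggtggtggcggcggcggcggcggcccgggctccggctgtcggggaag
LIN52, chr14:74084706-74085005, plus strand: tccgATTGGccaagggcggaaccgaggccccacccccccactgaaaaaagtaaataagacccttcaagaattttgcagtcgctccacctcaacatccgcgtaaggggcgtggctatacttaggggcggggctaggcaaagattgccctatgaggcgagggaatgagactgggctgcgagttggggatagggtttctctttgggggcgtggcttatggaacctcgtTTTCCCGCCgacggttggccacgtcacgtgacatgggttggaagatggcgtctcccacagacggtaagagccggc
MYBL2, chr20:43666864-43667163, plus strand: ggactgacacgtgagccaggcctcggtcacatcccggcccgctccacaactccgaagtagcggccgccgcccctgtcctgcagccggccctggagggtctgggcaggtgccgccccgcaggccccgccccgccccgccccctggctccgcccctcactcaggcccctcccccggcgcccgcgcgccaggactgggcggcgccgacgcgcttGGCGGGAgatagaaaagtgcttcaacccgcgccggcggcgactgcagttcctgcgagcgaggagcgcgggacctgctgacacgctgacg
LIN9, chr1:226309115-226309414, minus strand: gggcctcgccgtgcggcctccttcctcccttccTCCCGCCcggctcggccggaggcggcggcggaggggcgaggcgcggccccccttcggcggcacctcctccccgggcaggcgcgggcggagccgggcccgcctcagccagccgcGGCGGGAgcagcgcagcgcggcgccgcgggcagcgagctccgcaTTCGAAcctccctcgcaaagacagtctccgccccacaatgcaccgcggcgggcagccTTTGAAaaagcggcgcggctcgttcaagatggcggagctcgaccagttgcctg

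All 5 genes had GGCGGGA, or its reverse complement, in at least 1 promoter entry. The word was chosen from these sequences and genes had up to 3 entries. The count is therefore not set against the 15.4% of the 35116 single promoters that held it. The entries shown had 70.0% GC (LIN54), 58.0% (LIN52), 75.3% (MYBL2) and 76.3% (LIN9), beside a median of 58.7% over all promoters. Positions are counted from the start of each entry, which was not matched to the start site used. No word is therefore placed near an RB or V5 summit. In LIN54 GGCGGGA began 82 bases before the start, and the CHR word TTTGAA, present in 15.2% of all promoters, began 100 bases before it. Among the 5 genes with an entry, LIN52 alone had a longer E2F word, and MYBL1 and FOXM1 could not be searched. In LIN52 TTTCCCGC, in 1.63% of all promoters, began 25 bases before the start and overlapped the reverse complement of GGCGGGA. Any of the 6 longer E2F words occurred in 5.33% of all promoters. The MYBL2 promoter matched GGCGGGA alone, 39 bases before the start. The LIN9 entry shown held both CHR words, TTTGAA across the start and TTCGAA beginning 60 bases before it, where 16.4% of all promoters held either word. It also held GGCGGGA on each strand. The entry of another LIN9 start matched AACGG, which 19.7% of promoters held, and the remaining LIN9 entry matched none of the words. Of the 2 LIN37 entries, the first matched CCAAT (34.6% of promoters) and the second TTTGAA and GGCGGGA, and LIN52 also matched CCAAT. These matches describe letters and not binding sites.

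**Figure D1:**
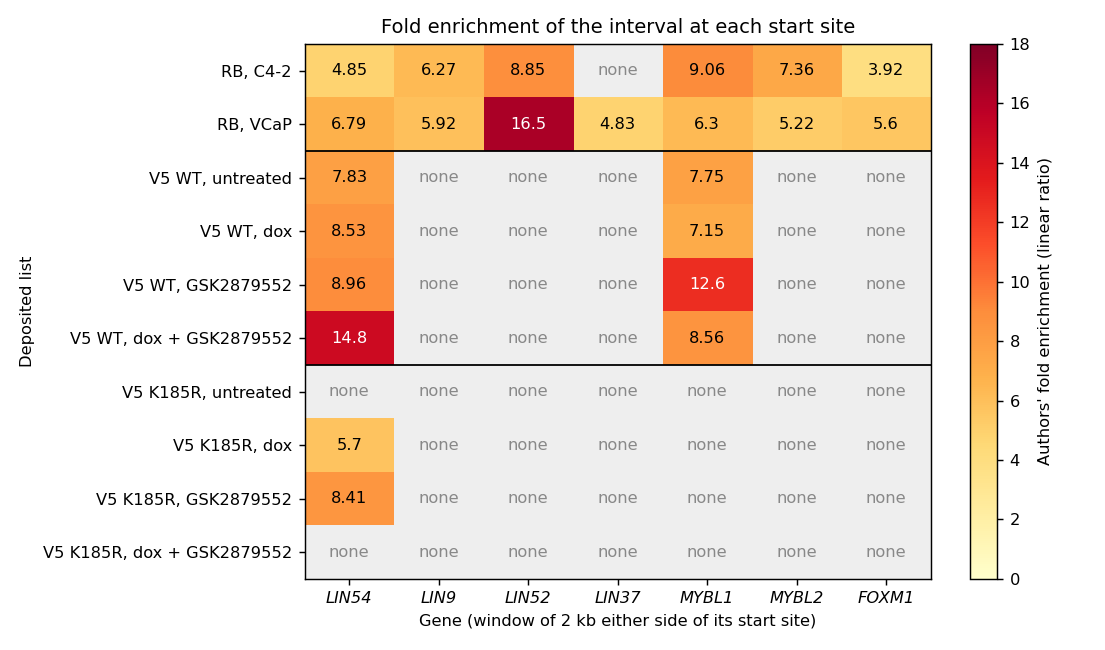
Fold enrichment (the authors' linear ratio of summit to local background) of the interval at each of the 7 start sites (columns) in each of the 10 lists (rows), where folds of different lists are not compared. Grey cells have no interval, and where a list held 2 the higher is shown. RB intervals fill 13 of 14 cells and V5 intervals fill 10 of 56, all at LIN54 and MYBL1.

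RB intervals lay at 6 of the 7 start sites in C4-2 and at 7 of 7 in VCaP. The share of all gene starts with an RB interval was not analysed here, so these counts are not read as a trait of the 7 genes. V5 intervals lay at LIN54 and MYBL1 and at none of the other 5 genes. All 4 WT lists had V5 intervals at both LIN54 and MYBL1. Of the 4 K185R lists, those with doxycycline and with GSK2879552 had one at LIN54, and none had one at MYBL1. This made 8 of 28 combinations of gene and list in WT and 2 of 28 in K185R.

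As a background, the intervals of the C4-2 RB list were overlapped with each other list, with 1 shared base counted as an overlap. RB intervals of VCaP overlapped 59.3% of the 9146 C4-2 intervals, and 5 of the 6 member intervals. In WT the V5 intervals overlapped 14.1% without treatment, 11.8% after doxycycline, 12.5% after GSK2879552 and 13.9% after both, against 2 of the 6 member intervals in each of these lists. For K185R the shares were 11.4% untreated and 6.07% with both treatments, where no member interval was overlapped. They were 8.53% with doxycycline and 9.0% with GSK2879552, where 1 of 6, at LIN54, was. The member counts rest on 6 sites chosen with these lists known, so nothing about the set is read from them. In 74.6% of C4-2 RB intervals no V5 list had an interval, as at LIN9, LIN52, MYBL2 and FOXM1.

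LIN54, the DNA-binding subunit, had an RB interval in both cell lines. In C4-2 the interval at 83934073 to 83934182 of chromosome 4 had a fold enrichment of 4.85 (the authors' ratio of summit to local background), a −log10 q of 3.38 and 10 reads at its summit. It stood at rank 7828 of 9146 by q, and ranks from lists of different lengths are not compared. In VCaP the interval at 83933965 to 83934378 had a fold of 6.79, a −log10 q of 11.2 and 23 summit reads. To set lists of unequal depth side by side, summit reads were divided by the genome-wide expectation of each list, called the floor. Exact 95% Poisson intervals are given with them and cover counting error only. The genes were chosen with these strengths known, and no list has a replicate error. Whether such intervals overlap is therefore a description and not a test. RB at LIN54 stood at 12.2 floors in C4-2 (5.84 to 22.4) and 36.2 in VCaP (23.0 to 54.4), and these intervals did not overlap. The local background was also higher in VCaP, 3.99 floors against 1.55. Fragment length, taken as the smallest interval width, was 213 bases in VCaP and 100 in C4-2. The part of either in the difference was not tested.

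LIN54 also had V5 intervals in 6 of the 8 V5 lists. In WT the fold was 7.83 without treatment, 8.53 after doxycycline, 8.96 after GSK2879552 and 14.8 after both. The −log10 q values were 7.83, 10.4, 9.86 and 24.2 in the same order, on 12, 16, 13 and 24 summit reads. In K185R the fold was 5.70 with doxycycline (−log10 q 3.87, 7 reads) and 8.41 with GSK2879552 (8.72, 12 reads). Untreated K185R and K185R with both treatments had no interval here. By q within their lists, the WT intervals ranked among the first 4.63% of 15099, 0.947% of 64025, 12.05% of 2805 and 2.53% of 3874. The K185R intervals ranked among the first 15.9% of 22328 and 4.34% of 9899. These percentages depend on list length and are not compared. In floors, the WT summits stood at 61.5 untreated (31.8 to 108), 65.8 with doxycycline (37.6 to 107), 93.6 with GSK2879552 (49.8 to 160) and 155 with both (99.5 to 231). WT with both treatments was highest in floors, but all pairs of these 4 intervals overlapped. The K185R summits stood at 37.2 with doxycycline (15.0 to 76.6) and 66.6 with GSK2879552 (34.4 to 116), which overlapped the WT interval of the same treatment in both cases. Local backgrounds were 3.38 to 4.45 floors in WT and 2.14 and 3.03 in K185R.

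**Figure D2:**
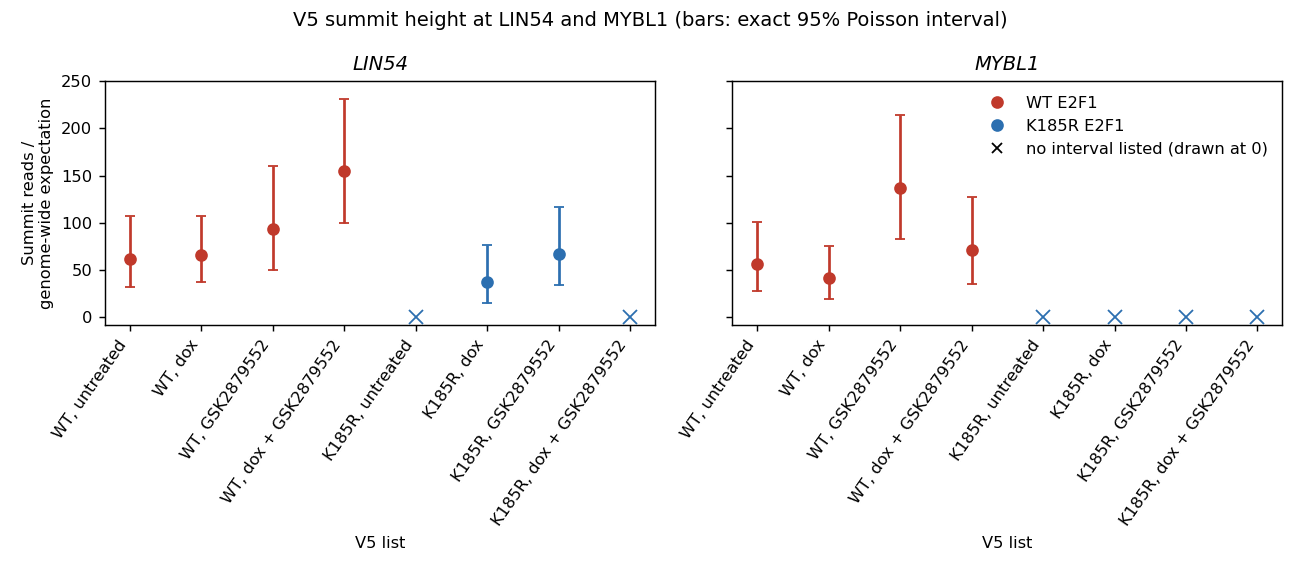
Summit reads at LIN54 (left) and MYBL1 (right) divided by the genome-wide expectation of the list, for the 8 V5 lists, with exact 95% Poisson intervals (counting error only). Crosses at 0 mark lists with no interval, 2 K185R lists at LIN54 and 4 at MYBL1. WT points run from 41.1 to 155.

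At LIN54 the V5 summits coincided closely with the RB summit of C4-2. That RB summit lay 59 bases from the start site toward higher coordinates, which is upstream on the minus strand RefSeq gives for LIN54. The 6 V5 summits lay 27 to 69 bases from the start on the same side. Measured against the C4-2 RB summit they were 0 to 32 bases away, and the VCaP RB summit was 36 bases away.

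MYBL1 encodes A-MYB, the family member best known for its role in male germ cells. Its RB interval ranked highest of the members in the C4-2 list, at 67525469 to 67525745 of chromosome 8, with a fold of 9.06, a −log10 q of 16.2 and 26 summit reads, at rank 925 of 9146. VCaP had 2 RB intervals there, at 67525426 to 67525660 (fold 6.30, −log10 q 8.77, 19 reads) and at 67525825 to 67526069 (fold 4.79, −log10 q 4.74, 14 reads). The first overlapped the C4-2 interval and the second lay 79 bases beyond it. RB at MYBL1 stood at 31.7 floors in C4-2 (20.7 to 46.4) and 29.9 at the higher VCaP summit (18.02 to 46.7), and these overlapped.

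V5 intervals at MYBL1 were present in the 4 WT lists and absent from the 4 K185R lists. The fold was 7.75 without treatment, 7.15 after doxycycline, 12.6 after GSK2879552 and 8.56 after both. The −log10 q values were 7.49, 6.47, 18.1 and 8.91, on 11, 10, 19 and 11 summit reads. In order of height the summits stood at 137 floors with GSK2879552 (82.3 to 214), 71.1 with both (35.5 to 127), 56.4 untreated (28.2 to 101) and 41.1 with doxycycline (19.7 to 75.6). The intervals of GSK2879552 alone and doxycycline alone did not overlap and every other pair did, which is no test of a treatment. WT with GSK2879552 was the highest list here, whereas at LIN54 it was WT with both. The summits lay 127 to 196 bases from the start toward higher coordinates and 7 to 76 bases from the C4-2 RB summit.

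The V5 lists differed in depth. Untreated K185R was the deepest V5 list, at 1.79 reads per kilobase of genome against 0.716 to 1.40 in the 4 WT lists, and had an interval at neither gene. At its depth the 4 WT summits would amount to 16.8 to 42.3 reads at LIN54 and 11.2 to 37.3 at MYBL1. This scaling takes enrichment over background to be equal in the lists, which was not checked. Untreated K185R held intervals of as few as 7 reads where the local background was 4 to 5 floors. That is near or above the background of the WT V5 intervals at these genes (up to 4.45 floors). For K185R with both treatments, the corresponding numbers were 9.80 to 24.7 reads at LIN54 and 6.54 to 21.8 at MYBL1, with 6 reads as the lowest listed. For MYBL1 they were 7.73 to 25.8 with doxycycline (lowest listed 5) and 7.41 to 24.7 with GSK2879552 (lowest listed 6). With counting error, the lowest bounds at MYBL1 were 5.37 reads in untreated K185R, 3.71 with doxycycline, 3.55 with GSK2879552 and 3.14 with both, each under the lowest listed. At LIN54 the lowest bound was 8.66 reads in untreated K185R, above the lowest listed, and 5.06 with both treatments, under it. Over all C4-2 RB intervals, the K185R lists overlapped 6.07% to 11.4% and the WT lists 11.8% to 14.1%. The reads at a site without an interval are not given in the lists. The part of depth, or of enrichment over the whole list, in the missing intervals was not tested.

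The patterns of MYBL1 and LIN54 were counted among all C4-2 RB intervals, with no test. V5 intervals in all 4 WT lists were found at 511 C4-2 RB intervals (5.59%). Of these, 75.7% also had an interval in 4 K185R lists, 9.20% in 3, 4.31% in 2, 5.09% in 1 and 5.68% in none. The MYBL1 pattern of 4 WT lists and no K185R list was thus held by 29 C4-2 RB intervals (0.317% of all), and the LIN54 pattern of 4 WT and 2 K185R lists by 22 (0.241%). With an overlapping VCaP interval and the same individual lists required, 17 other RB intervals shared the pattern of MYBL1 and 1 other shared that of LIN54. The latter count also fixes which 2 of the 4 K185R lists hold an interval, so the counts are not compared. A local background of 10 floors or more was found at 4.78% of all C4-2 RB intervals, at none of the 29, at 9.09% of the 22 and at 41.1% of the 387 with V5 in all 8 lists. Because no hg19 annotation was used, the genes near those sites are not named.

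LIN52, the subunit that docks pocket proteins, had the strongest VCaP RB interval of the members. The interval at 74551426 to 74551850 of chromosome 14 had a fold of 16.5, a −log10 q of 48.6 and 54 summit reads, at rank 125 of 17026. In C4-2 the interval at 74551493 to 74551746 had a fold of 8.85, a −log10 q of 13.9 and 22 reads, at rank 1223 of 9146. RB stood at 85.1 floors in VCaP (63.9 to 111) and 26.8 in C4-2 (16.8 to 40.6), and these did not overlap. Local backgrounds were 3.69 floors in VCaP and 1.95 in C4-2, and fragment lengths 213 and 100 bases. The part of either in the difference was not tested. The 2 summits were 11 bases apart, 139 and 150 bases from the start site used, toward higher coordinates. In the RefSeq table ALDH6A1, a mitochondrial dehydrogenase gene, is the protein-coding neighbour within 2 kb of either end of LIN52 or inside it. Its distance from the LIN52 start site was not measured, and the interval is not assigned to one gene.

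LIN9 and LIN37 are the remaining MuvB subunits among the members. RB at LIN9 had a fold of 6.27 in C4-2 (226496799 to 226497169 of chromosome 1, −log10 q 7.61, 17 reads) and 5.92 in VCaP (226496650 to 226497211, 6.11, 13 reads). At 20.7 and 20.5 floors the counting intervals of the cell lines overlapped (12.1 to 33.2 and 10.9 to 35.0). The LIN9 summits lay farthest from the start site used, 607 bases in C4-2 and 561 in VCaP toward lower coordinates. On the minus strand of LIN9 this is downstream of that start site. RefSeq lists 3 starts for LIN9, so the distance, and whether the summits lie upstream or downstream, depend on the start chosen. LIN37 had an RB interval in VCaP alone, at 36239230 to 36239487 of chromosome 19, with a fold of 4.83, a −log10 q of 4.53 and 13 reads. It ranked 10169 of 17026, and its 20.5 floors equalled those of LIN9 in VCaP. PSENEN, a gamma-secretase subunit gene, and HSPB6, a small heat shock protein gene, lie within 2 kb of either end of LIN37 or inside it in the RefSeq table. Their distance from the LIN37 start site was not measured.

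**Figure D3:**
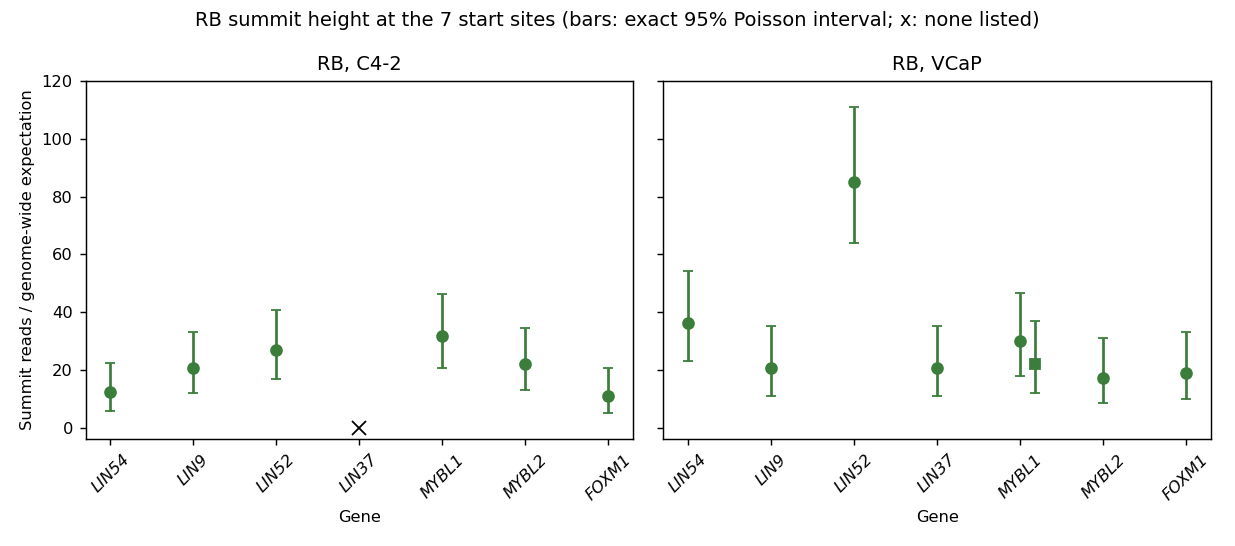
RB summit reads divided by the genome-wide expectation of the list at the 7 start sites in C4-2 (left) and VCaP (right), with exact 95% Poisson intervals. The cross marks LIN37 without an interval in C4-2, and the square is the second VCaP interval at MYBL1. LIN52 in VCaP is highest at 85.1.

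The genes of the later MuvB partners, B-MYB and FOXM1, had RB in both lines and V5 in none of the 8 lists. At MYBL2 the C4-2 interval at 42295592 to 42295913 of chromosome 20 had a fold of 7.36, a −log10 q of 9.72 and 18 reads, and the VCaP interval at 42295629 to 42295848 a fold of 5.22, 4.55 and 11 reads. The summits were 26 and 7 bases from the start, and the heights of 21.9 floors (13.0 to 34.7) and 17.3 (8.65 to 31.0) overlapped. At FOXM1, the C4-2 interval at 2986124 to 2986254 of chromosome 12 was among the weakest of its list, with a fold of 3.92, a −log10 q of 1.96 and 9 reads, at rank 9072 of 9146. The VCaP interval at 2986361 to 2986573 had a fold of 5.60, a −log10 q of 5.35 and 12 reads. Heights were 11.0 floors in C4-2 (5.01 to 20.8) and 18.9 in VCaP (9.77 to 33.0). FOXM1 was the one gene where both lines had RB but the intervals shared no base: they lay 106 bases apart on either side of the start site, with summits 281 bases from each other. In the RefSeq table ITFG2, TEX52 and RHNO1, a DNA damage response gene, lie within 2 kb of either end of FOXM1 or inside it. Their distance from the FOXM1 start site was not measured, and these intervals are not assigned to one gene.

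**Figure D4:**
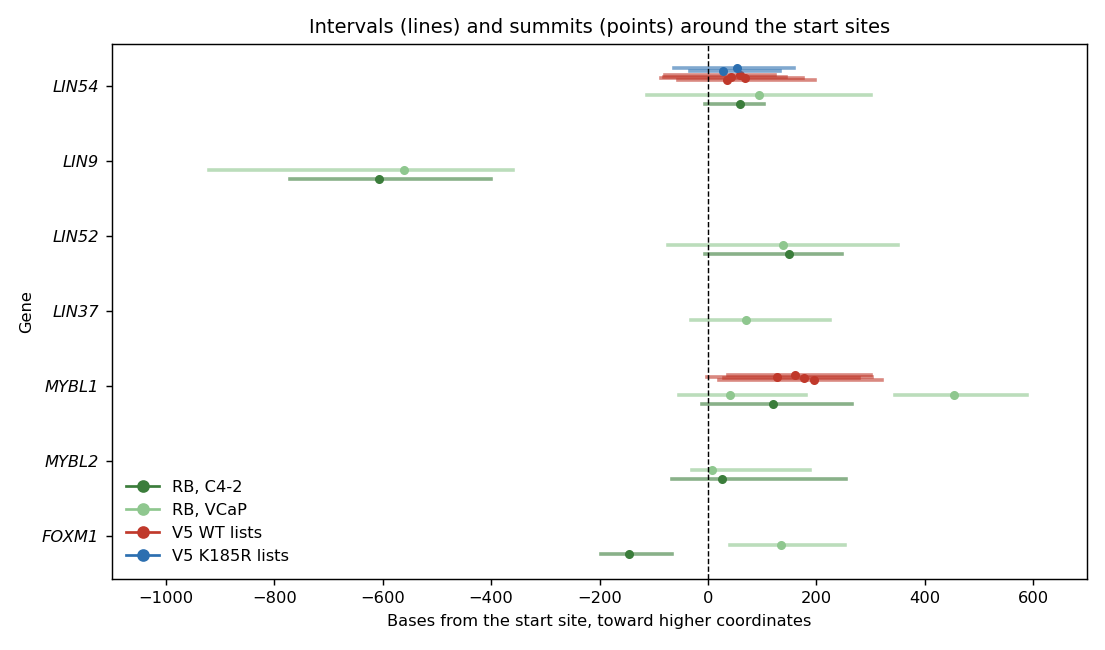
Position of each interval (line) and its summit (point) relative to the start site, in bases toward higher coordinates, for RB in C4-2 and VCaP and for the WT and K185R V5 lists. V5 summits at LIN54 lie 27 to 69 bases from the start, those at MYBL1 127 to 196, and RB at LIN9 lies 561 to 607 bases to the other side.

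Few intervals lay near the edge of the 2 kb windows. Inside the windows the summits farthest from a start were those of LIN9 and, at 454 bases, the second VCaP interval of MYBL1. The nearest interval outside a window belonged to untreated K185R and lay 2443 bases from the LIN37 start (fold 4.91, −log10 q 2.97, 6 reads). Next came a VCaP RB interval 3452 bases from the same start, on the other side (fold 4.98, −log10 q 6.20, 18 reads). None of the 24 member intervals had a local background of 10 floors or more.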

How the data were processed

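For each group the authors deposited 1 list of intervals on hg19. Per the submitters' processing notes the tools were MACS2 2.1.0, SAMtools 1.2, BWA 0.7.9a and FastQC 0.11.9. How they were set, whether duplicate reads were removed and whether a control was sequenced is not given in the sources used here. V5 interval names speak of merged libraries, and those of the C4-2 RB list of a single library. Each deposited interval carries a fold enrichment (a linear ratio), a −log10 p-value and a −log10 q-value. They are the authors' values and describe intervals within a list. Values of different lists are printed side by side without a test, and heights are set against each other only in floors.

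Summit reads and local background were solved from the deposited fold and −log10 p (Python 3.11.15, scipy 1.17.1), since the fold holds 1 added read in numerator and denominator and p is Poisson. This step was tested on data simulated with the same formulas, which checks the solving and not the formulas. For the deposited intervals, p recomputed from its output was off by at most 0.00016 on the −log10 scale. The floor of a list is the lowest background that 5 or more intervals had in common, and floor over fragment length (the smallest interval width) gives depth. Depth was 8.21 reads per kilobase for RB in C4-2, 2.98 in VCaP and 0.716 to 1.79 in the V5 lists. Poisson intervals of 95% cover counting error only, and reads without molecular identifiers are not independent molecules.

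The members, motifs and windows were chosen with earlier results of these data known, and all 7 genes are named. With 1 list per group no test was made. Without an hg19 annotation, the other pathway genes and the share of all gene starts were not analysed here. The C4-2 RB list served as background in their place.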

Additional observations from a re-analysis of the deposited data

How the results depend on the processing

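Counts of genes with an interval, the means over 4 WT (2 genes) and 4 K185R lists (0.5 genes), and the 10 combinations with both C4-2 RB and V5 moved by at most 1.5 times with 1 kb windows, by summit in place of overlap, and without intervals of 10 floors or more. With 5 kb windows untreated K185R gained LIN37 and had 1 gene instead of 0. At −log10 q of at least 5, K185R with doxycycline had 0 genes in place of 1 and the K185R mean was 0.25. RB had 4 genes in place of 6 in C4-2, where LIN54 and FOXM1 were lost. In VCaP it had 5 in place of 7, where LIN37 and MYBL2 were lost. Because the C4-2 RB interval at LIN54 was lost, 4 combinations had both RB and V5. With the 1000 intervals of highest −log10 q, both RB lists had 1 gene, WT with doxycycline had 1, K185R with doxycycline had 0, the K185R mean was 0.25, and 3 combinations had both. With summits of at least 21.6 floors, the lowest in the shallowest list, both RB lists had 3 genes and 4 combinations had both. All 10 V5 intervals shared a base with the C4-2 RB interval, and all 10 summits were within 100 bases of its summit. With 50% of both intervals required, the share of C4-2 RB intervals met by V5 was 9.73%, 6.54%, 7.78% and 8.67% in WT and 7.64%, 5.61%, 5.57% and 3.27% in K185R (without treatment, after doxycycline, after GSK2879552, after both). The V5 intervals rest on 7 to 24 reads. The V5 lists pool their libraries and RB has 1 list per cell line, so no replicate could be left out. No paired analysis was possible because each list stands for a whole group.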

Other observations

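Within 20 kb of the start sites but outside the windows, RB intervals of both cell lines coincided at 2 places. One lay 9698 bases (VCaP, fold 12.6, −log10 q 26.0, 32 reads) and 9725 bases (C4-2, fold 6.42, −log10 q 6.45, 13 reads) from the LIN37 start toward higher coordinates. Untreated WT cells had a V5 interval there on 5 reads (fold 4.83, −log10 q 2.91), so RB in C4-2 was listed near LIN37 at this place and not in its window. The other lay 13608 bases (VCaP, fold 6.67, 21 reads) and 13739 bases (C4-2, fold 6.44, 16 reads) from the FOXM1 start, with a higher fold in C4-2 than the interval at FOXM1 itself. The remaining V5 intervals in these surroundings had 5 to 7 summit reads, and no RB interval of C4-2 overlapped them.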
